A study of Rattus norvegicus with 12 samples.

Results

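The long m6A peaks of rat sciatic nerve were the 454 peaks of 500 bases or more in a list of 4014 peaks that differed between injured and uninjured nerve. They were chosen by the length of each row, taken as end minus start, and their share was 11.3%, with an exact 95% Clopper-Pearson interval from 10.3% to 12.3%. The other 3560 peaks are referred to as shorter peaks. Since length is a result of the same comparison that gave each peak its score, lengths and scores are given as a description and no test was run on them. Every interval below covers counting error only, and peaks of the same transcript share their RNA and are not independent.

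The samples were from female Wistar rats of 100 to 120 g, aged 4 weeks. Nerve tissue was taken from the centre of the lesion 7 days after sciatic nerve injury (SNI), or from uninjured rats (Control), with 3 samples in each group and no sham operation described. Each sample gave an m6A immunoprecipitation (IP) library and an input library, 12 in all, from poly(A) mRNA broken into fragments of about 100 nucleotides, with a kit that keeps the strand. The deposited list was made over all replicates together. It holds a position, a strand and a score, which is −log10 of the p-value of the SNI against Control comparison, so it gives no value per sample, no replicate error, no direction and no depth for a peak. For the same reason the tissue could not be checked against marker genes from the list. In the paper's table of RNA changes, the 10 genes listed as lowered after SNI are all of skeletal muscle. Whether muscle content differed between the samples was not tested.

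N6-methyladenosine (m6A) is placed on mRNA by a methyltransferase complex around METTL3 and METTL14, can be removed by FTO and ALKBH5, and is read by proteins such as the YTH family, which affect the stability and translation of the transcript. It is known to collect in long internal exons and around stop codons. In MeRIP-seq the position of a methylated site is known only to about the width of the fragments, so a long peak is a stretch of neighbouring fragments and does not count methylated bases. After injury a peripheral nerve holds dividing and repair-type Schwann cells, fibroblasts and invading macrophages and other leukocytes. In such bulk samples, more or fewer cells of a type and more or less RNA per cell cannot be told apart.

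The long peaks ran from 500 to 4521 bases. Their median was 759 bases, with quartiles of 599 and 1090 bases, where the shorter peaks had a median of 137 bases with quartiles of 90 and 222. Together the long peaks held 430521 bases, which was 41.8% of the summed length of the list. Among them 131 were at least 1000 bases long, 46 at least 1500, 22 at least 2000 and 8 at least 3000. Peaks under 800 bases were thus more numerous than wider ones, with 121 from 500 to 599 bases and 128 from 600 to 799.

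**Figure D1:**
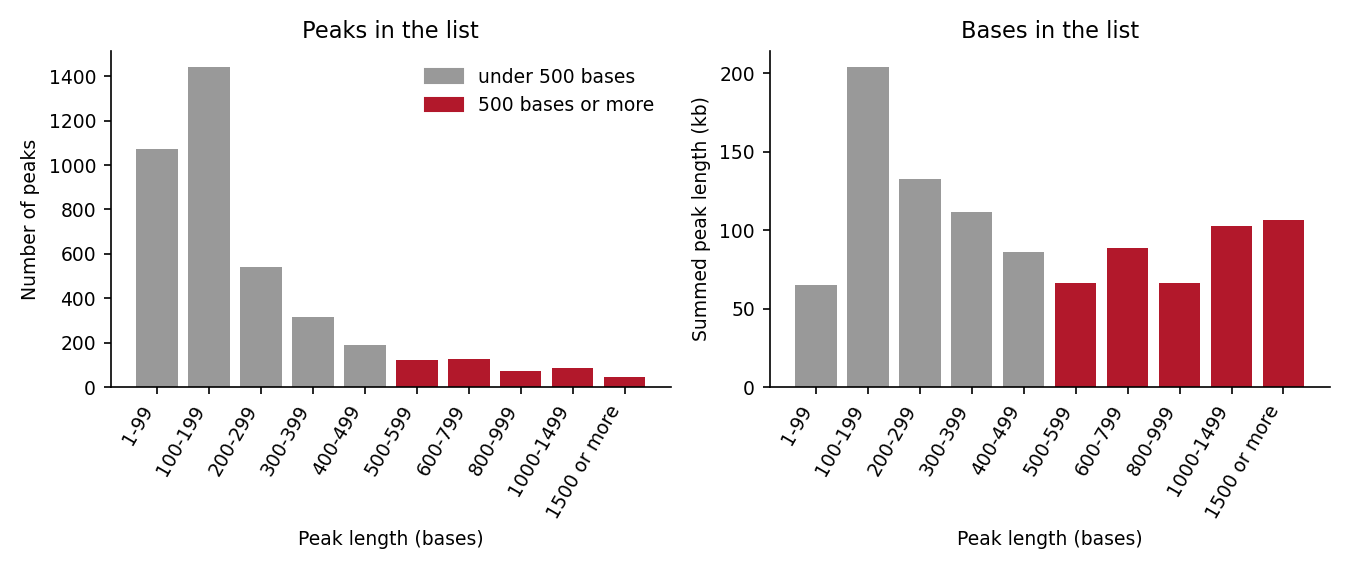
Number of peaks (left) and summed peak length in kb (right) by peak length in bases, over the whole list, with shorter peaks in grey and long peaks in red. Peaks of 1500 bases or more were 46 in number, the fewest of any bin, but their summed length was 106454 bases.

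At the limit itself, 14 peaks were 499 bases long and fell just outside, and in all 14 both edges lay on the 20-base grid described further on. Between 490 and 499 bases there were 25 peaks, and between 500 and 509 bases there were 13. A set of 3 peaks had exactly 500 bases. These were a plus-strand peak of Gdnf at chr2:76919245-76919745 with a score of 9.37, one at chr2:270417080-270417580 with 8.87, and one at chr10:103929017-103929517 with 8.06. The next in length was the 501-base peak of Inhba, with a score of 7.22. A start counted from 1 would add a base to every peak and bring the 14 peaks of 499 bases into the set, giving 468.

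Long peaks were found on all 21 chromosomes of the list. Chromosome 2 held the most, 55 of its 366 peaks (15.0%, 11.5% to 19.1%), ahead of chromosome 1 with 44, chromosome 3 with 39 and chromosome 4 with 35. By share, chromosome 17 was highest with 19 of 125 peaks (15.2%) and chromosome 10 lowest with 22 of 298 (7.38%, 4.68% to 10.96%). Chromosomes 12 and 20 had the fewest, 6 each. Chromosome 1, with the most peaks of the list, 489, was thus not the one with the most long peaks. Chromosome 3 carries a pair of dense groups of short peaks on the minus strand. The first group, of 78 peaks from 42778861 to 42953918, held no long peak, and its longest was 312 bases. The second, of 56 peaks from 70247337 to 70402652, held 2 long peaks, of 659 and 1694 bases, with scores of 7.18 and 5.89.

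The minus strand carried 242 long peaks and the plus strand 212, so that 53.3% (48.6% to 58.0%) were on the minus strand. Among shorter peaks this share was 55.5% (53.8% to 57.1%), and the intervals overlapped.

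The list gives no gene names. Names were taken from the tables of the study where the start and end were identical, without using any value of those tables. Only 526 rows of the supplementary peak table were used here, all of them from its sheet of peaks with more m6A after SNI, so the named genes say nothing of how genes divide between the directions. Of these rows 58 were long peaks (11.03%, 8.48% to 14.02%), close to the share of long peaks in the whole list. A table of the most changed peaks, which holds both directions, named 3 more, Slco5a1 under more m6A after SNI and Itih6 and Olr681 under less. Directions are as the paper labels them. Its quality table gives the Control inputs the raw read counts of the SNI RNA-seq libraries, and the SNI inputs those of Control RNA-seq. Which labels are right was not determined. In all, 61 long peaks of 56 genes had a name and 393 had none. Among the named ones 33 had a score of at least 8. Peak by peak, the position inside the gene (coding sequence, UTR or intron) was not determined, since no annotation of the rn5 build was used here.

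Named genes were placed in groups by hand. The share of each group among named shorter peaks was not determined, so group size is not read as a trait of long peaks. The largest group was innate sensors and interferon signalling, with 11 long peaks of 9 genes. Their lengths ran from 655 to 1756 bases and their scores from 6.74 to 11.5 with a median of 8.30, and 7 of the 11 had a score of at least 8. The longest was in Nlrp3, whose protein nucleates an inflammasome, at chr10:45655840-45657596 on the plus strand, with 1756 bases and a score of 8.30. Nlrc4, the partner of the NAIP sensors of bacterial proteins in another inflammasome, had a peak of 1279 bases at chr6:32064461-32065740, with a score of 8.45 and both edges on the grid. The NAIP sensors were themselves in the group. Naip6 had 3 long peaks on the minus strand of chromosome 2, of 779, 740 and 661 bases, with scores of 10.6, 7.54 and 7.94, and Naip5 had one of 819 bases at chr2:49600721-49601540 with 10.03. Naip5 and Naip6 are near-identical copies in 1 cluster, so how the reads divide between them is uncertain. The highest score of the group was in Tlr9, the endosomal receptor for unmethylated DNA, where a peak of 688 bases at chr8:114282381-114283069 scored 11.5. The other members were Ifnlr1, a receptor chain for lambda interferons (795 bases, score 9.47), Trim25, a ubiquitin ligase of the RIG-I pathway (655 bases, 8.27), Nlrc5, an activator of MHC class I genes (796 bases, 7.07), and Rel, a subunit of NF-kB (679 bases, 6.74).

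Mitosis, replication and DNA repair gave 7 long peaks, 1 in each of 7 genes, from 639 to 3780 bases. The lowest score was 6.08, the median 8.24 and the highest 11.1, and 4 of the 7 were at least 8. Aspm, a spindle pole protein, had the longest named peak of the list, 3780 bases at chr13:61595133-61598913 on the plus strand, with a score of 6.08, the lowest of the group. Mastl, the kinase that restrains a phosphatase at mitotic entry, had the highest score, 11.1, over 659 bases at chr17:91522181-91522840. Length and score were thus led by different genes. Between them lay Kif14, a kinesin of cytokinesis, with 1217 bases and 9.98, Incenp, the scaffold of the chromosomal passenger complex, with 639 bases and 10.8, and Sgol2 (now Sgo2), which guards cohesion at centromeres, with 1179 bases and 8.24. The members with scores below 8, beside Aspm, were Dtl, which directs a ubiquitin ligase in S phase (678 bases, 7.80), and Palb2, which brings Brca2 to DNA breaks (1157 bases, 6.72).

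Histones were a pair of replication-dependent genes. Hist1h1b (now H1f5), a linker histone, had 669 bases at chr17:58699737-58700406 and a score of 10.03, and Hist2h2aa3 (now H2ac18), a core histone, had 528 bases at chr2:217874524-217875052 and a score of 8.51. Neither peak had an edge on the grid. Both genes belong to multigene families with near-identical copies, so that the gene behind the reads is uncertain.

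Transcription factors and RNA-binding proteins gave 8 long peaks of 7 genes, from 541 to 1387 bases, with scores from 7.23 to 9.83 and 4 of at least 8. Zfp217, a zinc finger regulator, had the longest, 1387 bases at chr3:173106187-173107574 with a score of 7.89. Ets1, a factor of lymphocytes and vessels, had the highest score, 9.83, over 569 bases. Rbm47, an RNA-binding protein that takes part in RNA editing, had a pair of long peaks on the plus strand of chromosome 14, of 1160 bases with 7.23 and of 541 bases with 9.67. The shorter of the pair thus had the higher score. Bcl11b, a zinc finger factor of T cells and neurons, had 699 bases and 7.36, and was the only long one among its 4 named peaks. Bhlhe22, a factor of neuronal development, had 639 bases and 7.44. Lrrfip1 had 839 bases and 8.89, and Zfp951 had 712 bases and 8.10, with the reservation that zinc finger genes have close copies.

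Adhesion, guidance and neuronal structure covered 7 long peaks of 5 genes. Their scores spanned the widest range of any group, from 5.32 to 13.1, with a median of 6.38. The top was Plxnc1, a receptor for a semaphorin, with 635 bases at chr7:36062665-36063300 on the minus strand and a score of 13.1, the highest of all long peaks. The low end was Tenm3, a teneurin that guides synaptic partners, with peaks of 895 and 759 bases scoring 5.32 and 5.51. Tenm3 also had 3 shorter named peaks, of 279, 147 and 217 bases. Pcdh17, a protocadherin, had a peak of 2632 bases at chr15:71182276-71184908 with a score of 6.10 and another of 567 bases with 6.38. Nefm, the middle neurofilament subunit of axons, had 539 bases and 8.31, and Sorcs2, a sorting receptor that binds neurotrophin precursors, had 573 bases and 6.56. Except for Plxnc1 and Nefm, all long peaks of this group scored below 8.

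Cytoskeleton gave 5 long peaks of 5 genes, from 519 to 1884 bases. Fmn1, a formin that assembles actin filaments, had 1884 bases at chr3:111402089-111403973 and a score of 8.11. Specc1 had 1583 bases and 6.57, Myo18b, an unconventional myosin, had 1290 bases and 5.64, and Fyb (now Fyb1), an adaptor of T cells and platelets, had 1204 bases and 7.59. Ccdc88b had 519 bases and 6.63. The 4 longest all had neither edge on the grid, and Fmn1 was the only member with a score of at least 8.

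Secreted factors and matrix gave 4 long peaks. Gdnf, a neurotrophic factor that denervated Schwann cells release, had the 500-base peak named above with a score of 9.37. Itih6, related to the inter-alpha-trypsin inhibitors that bind hyaluronan, had 739 bases at chr5:37820981-37821720 and 8.80. Inhba, the subunit of activin A, had 501 bases and 7.22, and Col8a1, a short-chain collagen, had 514 bases and 6.51. Of these 4, 3 were within 20 bases of the lower length limit.

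Receptors, transporters and channels gave 9 long peaks of 9 genes, with lengths from 506 to 813 bases, so that no member reached 1000. Scores ran from 5.17 to 11.5, and 5 of 9 were at least 8. Itprip, which modulates the receptor for inositol trisphosphate, led with 11.5 over 579 bases at chr1:275084221-275084800. Htr2a, a serotonin receptor, had the longest peak, 813 bases at chr15:60454061-60454874, with 10.9. Olr681 (now Or4c117b), an odorant receptor of a very large family and so uncertain, had 622 bases and 10.8, and Slco5a1, an organic anion transporter family member, had 720 bases and 8.82. The remaining 5 were Slc9a7, Mfsd9, Lpar3, Slc22a23 and Mctp2, from 506 to 547 bases, with scores from 5.17 in Mctp2 to 8.01 in Slc9a7. A further 7 named peaks of other genes ran from 553 to 1385 bases, with 5 scores of at least 8, the highest being 8.94 in Trib1, a pseudokinase that directs protein turnover.

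**Figure D2:**
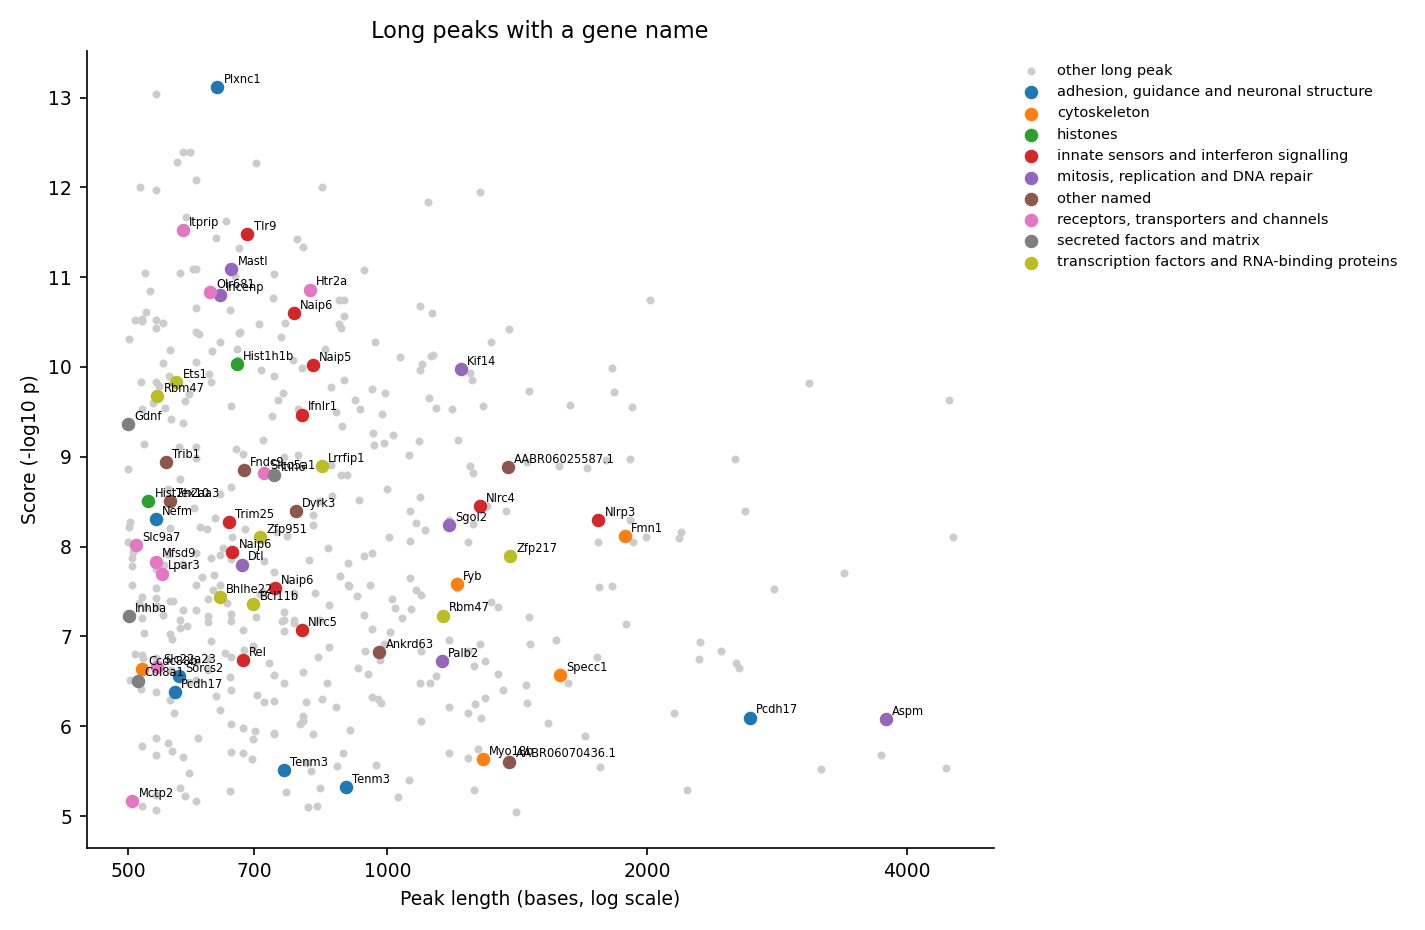
Score (−log10 p) against length in bases (log scale) of the 454 long peaks, with the 60 described by gene group coloured and labelled. Plxnc1 is at the top with a score of 13.1 over 635 bases, and Aspm is the named peak farthest to the right with 3780 bases and a score of 6.08.

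The table of genes with the largest changes in RNA level named no long peak. Only peaks without a name from the other tables were counted in its loci. Of its 20 loci, 10 overlapped such peaks on the same strand. These were 23 peaks, and the longest of them was 390 bases, where long peaks were 11.3% of the whole list. In the 10 loci of skeletal muscle genes there were 20 such peaks, also with a longest of 390 bases. So few peaks, most of them in muscle loci and not independent, do not show whether the most changed genes lack long peaks.

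Of the 393 unnamed long peaks, 9 lay between 2 named peaks of the same gene and strand. They were 2 at Nav2 and 1 each at Tenm3, Adgrl3, Naip5, Zfp951, Clspn, Pcdh17 and Thbs2, and ran from 557 to 1093 bases. A wider view took unnamed long peaks in runs of same-strand peaks with gaps under 10 kb that also held a named peak, and found 32 beside 28 genes. The widest lay beside Mki67, the proliferation marker, with 4448 bases, and beside Cenpf, a kinetochore protein, with 3383 and 2298 bases. The scores of these 3 peaks were 5.54, 7.71 and 6.75. The highest score in this view was 12.3, over 704 bases beside Siglec1, a sialic acid receptor of macrophages. Other neighbours were Ikzf1 and Ikzf3, lymphoid zinc finger factors (941 and 984 bases), Cx3cr1, the fractalkine receptor of monocytes (519 bases), and Sox4, a developmental factor (639 bases). Such a neighbour is not a name, since adjacent genes can share a strand. Both views together covered 34 peaks and left 359 with no named neighbour.

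Among the 10 longest peaks, 2 had a name, Aspm and Pcdh17. The longest of all was on the plus strand at chr3:119100382-119104903, with 4521 bases and a score of 8.11. The next were 4482 bases at chr3:117409215-117413697 on the plus strand (score 9.63), 4448 bases at chr1:214931939-214936387 on the minus strand (5.54, the one beside Mki67), and, after Aspm, 3736 bases at chr1:42245184-42248920 on the plus strand (5.68). The minus-strand peak beside Cenpf at chr13:112772974-112776357 had 3383 bases, and 2 further minus-strand peaks at chr14:55213643-55216825 and chr2:162563525-162566608 had 3182 and 3083 bases, with scores of 5.53 and 9.82. A plus-strand peak at chr9:9953037-9955840 had 2803 bases and 7.53. Scores of the 10 longest thus ran from 5.53 to 9.82, below the top scores of the narrower peaks.

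The 5 highest scores of long peaks were all in peaks of 539 to 635 bases. After Plxnc1 with 13.1, the fifth score of the whole list, came plus-strand peaks at chr2:156483741-156484280 (539 bases, 13.0), chr5:55196041-55196631 (590 bases, 12.4), chr1:126599241-126599820 (579 bases, 12.4) and chr3:107418250-107418820 (570 bases, 12.3). Long peaks were 2 of the 10 and 6 of the 100 highest-scoring peaks of the list, beside 11.3% of the list as a whole.

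The edges of the peaks fell on a fixed grid of 20 bases far more often than an even spread of positions would give. An edge is on the grid here when a start is 1 base past a multiple of 20 or an end is at one, and an even spread would put 5% of edges there. Among long peaks 226 starts (49.8%, 45.1% to 54.5%) and 217 ends (47.8%, 43.1% to 52.5%) were on the grid. Each of the other 19 remainders held between 6 and 19 starts and between 8 and 20 ends. Among shorter peaks the shares were 27.9% (26.4% to 29.4%) and 28.2% (26.7% to 29.7%). The intervals of long and shorter peaks did not overlap for either edge. Shorter peaks of all lengths were pooled in this contrast, and those nearest the limit had shares near those of long peaks, as given below.

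Both edges were on the grid in 133 long peaks (29.3%, 25.1% to 33.7%) and in 10.2% (9.19% to 11.2%) of the shorter ones. By this definition all 133 were whole numbers of 20-base steps wide when both end bases are counted. The commonest widths were 540 bases (16 peaks), 600 (11 peaks) and 520 (8 peaks). Neither edge was on the grid in 144 long peaks (31.7%, 27.5% to 36.2%), against 54.1% (52.5% to 55.8%) of the shorter ones. The share with both edges on the grid did not rise steadily with length. It was 1.59% under 100 bases, 34.6% from 400 to 499, 38.0% from 500 to 599, 35.9% from 600 to 799, 21.6% from 800 to 999, 23.5% from 1000 to 1499 and 10.9% at 1500 bases or more. In that last bin 27 of 46 peaks (58.7%) had neither edge on the grid. Peaks with neither edge on the grid thus made up the larger part at both ends of the length range.

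**Figure D3:**
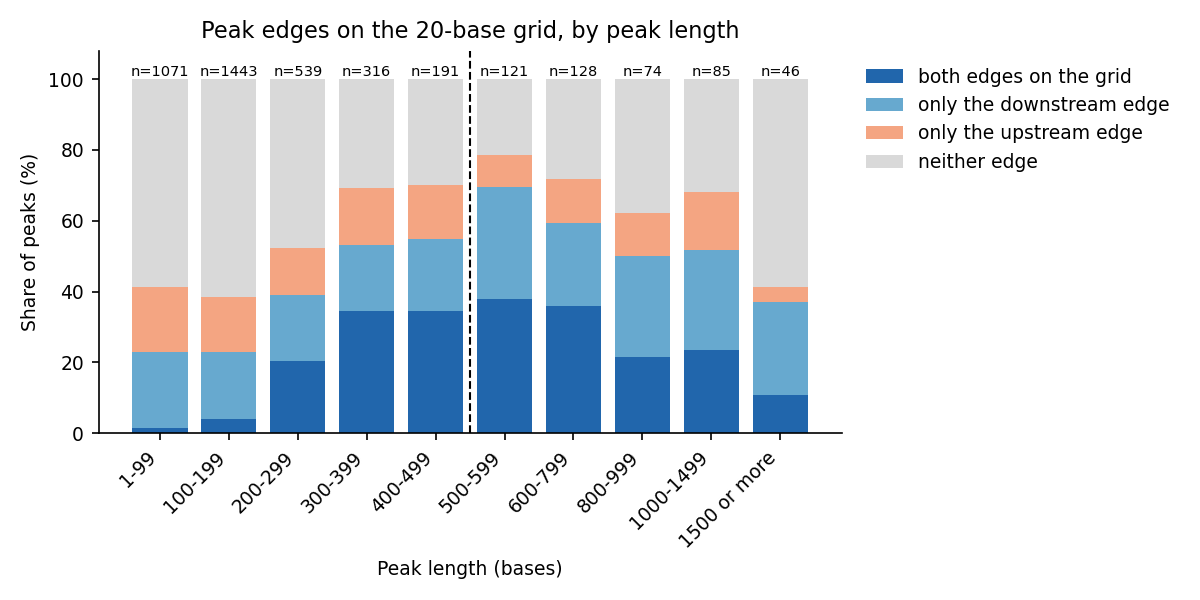
Share of peaks in percent by which edges lay on the 20-base grid, in bins of peak length in bases, with the number of peaks above each bar and a dashed line at 500 bases. Peaks with both edges on the grid were 38.0% from 500 to 599 bases and 10.9% at 1500 bases or more.

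The sides of the peak also differed. Taking the strand into account, the upstream edge is the one nearer the 5′ end of the RNA and the downstream edge the one nearer the 3′ end. In long peaks the downstream edge was on the grid in 258 (56.8%, 52.1% to 61.4%) and the upstream edge in 185 (40.7%, 36.2% to 45.4%). Only the downstream edge was on the grid in 125 long peaks and only the upstream edge in 52. The order was the same on both strands, with 57 against 25 peaks on the plus strand and 68 against 27 on the minus strand. On the plus strand, 57.1% of downstream and 42.0% of upstream edges of long peaks were on the grid, and on the minus strand 56.6% and 39.7%. Among shorter peaks the sides were closer, with 29.7% (28.2% to 31.3%) of downstream and 26.3% (24.9% to 27.8%) of upstream edges on the grid. From 400 to 499 bases, just below the limit, these shares were 55.0% and 49.7%, so on-grid edges were not particular to long peaks. In the named groups, examples with only the downstream edge on the grid were Ets1, Lpar3, Col8a1 and Slco5a1. Examples with only the upstream edge were Tlr9, Plxnc1 and Htr2a. Of the 58 long peaks named by the supplementary peak table, 12 (20.7%, 11.2% to 33.4%) had only the downstream edge on the grid. Only the upstream edge was on it in 9 (15.5%, 7.35% to 27.4%). These are exclusive classes of the same 58 peaks, so their intervals do not compare the sides. Among the other 396 long peaks the numbers were 113 (28.5%) and 43 (10.9%). From 500 to 599 bases the downstream edge was on the grid in 69.4% of peaks and the upstream edge in 47.1%, and at 1500 bases or more in 37.0% and 15.2%.

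**Figure D4:**
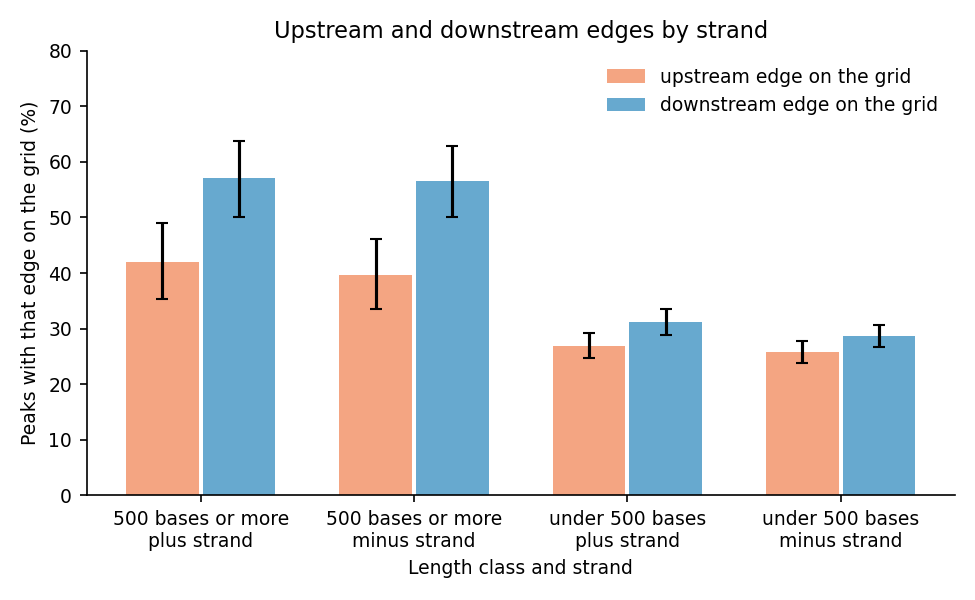
Percent of long and shorter peaks with the upstream or the downstream edge on the 20-base grid, by strand; bars are shares and whiskers exact 95% Clopper-Pearson intervals, for counting error only. In long peaks the downstream share was 57.1% on the plus and 56.6% on the minus strand, against 42.0% and 39.7% for the upstream edge.

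Peaks with neither edge on the grid were also looked at for lengths that are multiples of 3. These were 60 of 144 long peaks (41.7%, 33.5% to 50.2%), where 43 and 41 had the other remainders, and 878 of 1927 shorter peaks (45.6%, 43.3% to 47.8%). The intervals overlapped. Which of these peaks fill an exon was not determined.

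Scores of long peaks ran from 5.05 to 13.1, with a median of 7.84 (order-statistic 95% interval 7.56 to 8.10) and quartiles of 6.72 and 9.54. The shorter peaks reached 13.6 and had a median of 7.42 (7.37 to 7.47) and quartiles of 6.53 and 8.83. A score of at least 8 was found for 212 long peaks (46.7%, 42.0% to 51.4%) and for 35.9% (34.3% to 37.5%) of the shorter ones. The ranges thus overlapped almost entirely, and the upper quartiles lay farther apart than the medians. Shorter peaks of all lengths were pooled in this contrast. Their share with a score of at least 8 was 30.5% under 100 bases and 40.8% from 400 to 499 bases, where the median was 7.65. Within the long peaks the median did not climb with length. It was 7.87 from 500 to 599 and from 600 to 799 bases, 7.83 from 800 to 999, 7.59 from 1000 to 1499 and 7.63 at 1500 bases or more. The highest score per bin fell from 13.1 at 600 to 799 bases to 10.7 at 1500 or more, where there were only 46 peaks.

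**Figure D5:**
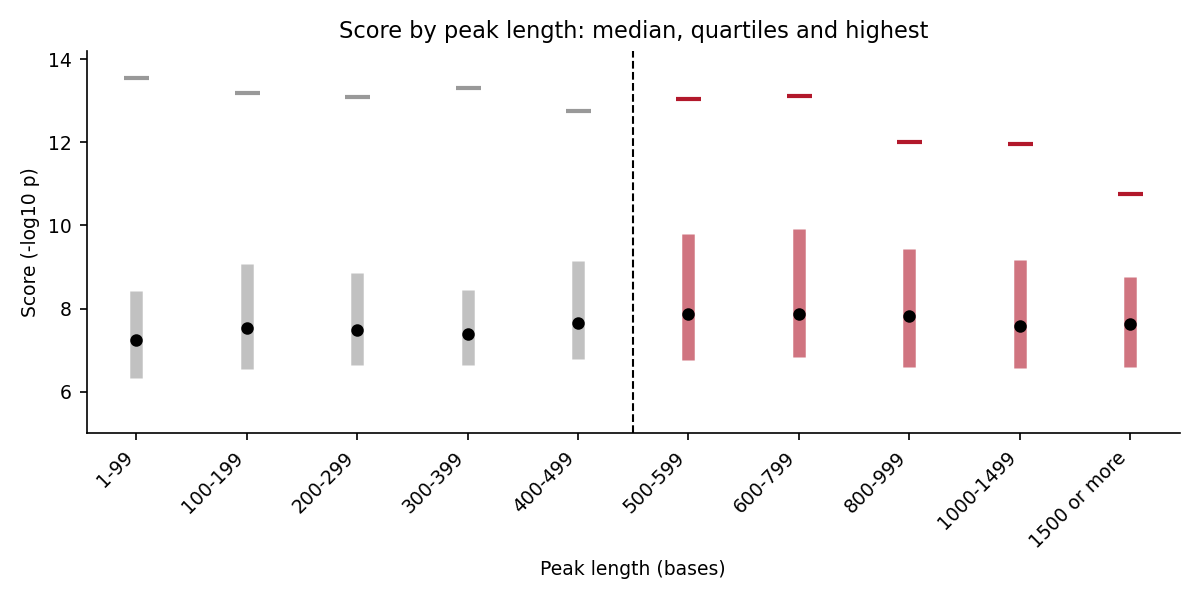
Score (−log10 p) by peak length in bases, with the median (black dot), the quartiles (thick bar) and the highest score (dash) of each bin and a dashed line at 500 bases. Medians of long peaks lay between 7.59 and 7.87 and those of shorter peaks between 7.24 and 7.65.

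By edge, long peaks with both edges on the grid had a median score of 7.40 (quartiles 6.51 and 8.99) and a median length of 679 bases. Those with neither edge on the grid had a median score of 8.11 (6.74 and 9.61) and a median length of 894 bases. The medians were 8.10 with only the downstream edge on the grid and 7.74 with only the upstream edge. The quartile ranges overlapped among all 4 kinds.

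Spacing was measured as the gap to the nearest other peak of the same strand. A gap of at most 100 bases, overlaps included, was found for 34 long peaks (7.49%, 5.24% to 10.3%) and for 2.19% (1.74% to 2.73%) of shorter ones. At 1 kb the shares were 25.3% (21.4% to 29.6%) and 18.1% (16.8% to 19.4%), and at 10 kb 48.0% (43.3% to 52.7%) and 53.3% (51.6% to 54.9%). The intervals were apart at 100 bases and at 1 kb, where long peaks had a neighbour more often, and overlapped at 10 kb. Named long peaks with such a close neighbour were Plxnc1 (gap of 21 bases), Tlr9 and Ccdc88b (41), Nefm and Bcl11b (61) and Bhlhe22 (81). These widths were typical, since of the 58 gaps under 100 bases in the list 17 were of 21 bases, 13 of 41, 10 of 61 and 14 of 81.

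A pair of long peaks followed each other within 1 kb 22 times. In 21 of these pairs the gap was 1 base past a multiple of 20, the median gap was 171 bases and the widest 681, and 2 pairs overlapped. Scores within a pair differed by a median of 1.00 and by up to 5.11. The widest difference was at Tlr9, where 3 long peaks followed each other on the plus strand of chromosome 8 from 114279921 to 114283069. An unnamed peak of 1279 bases with a score of 11.95 overlapped one of 1239 bases with 6.84, and the Tlr9 peak with 11.5 began 41 bases after it. Neighbouring stretches there thus had scores far apart, while the smallest difference within a pair was 0.0006.

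Most long peaks were the only long one in their region. With gaps under 10 kb on 1 strand, they fell into 411 runs of peaks, of which 375 held 1 long peak, 31 held 2, 4 held 3 and 1 held 5, and 236 of the runs were a single peak. The run with 5, at chr2:41898381-41908429 on the minus strand, had no name and held 8 peaks, of which the long ones had 539, 739, 1619, 1119 and 2148 bases and scores from 6.14 to 6.76. On the plus strand of chromosome X from 28951910 to 28954980, 3 long peaks of 1790, 639 and 599 bases with scores of 8.97, 7.90 and 10.4 were set apart by gaps of 21 bases each. On the plus strand of chromosome 4 from 49872163 to 49875560, 3 had 1177, 599 and 1239 bases and scores of 5.71, 6.51 and 5.64. The last of the runs with 3, on the plus strand of chromosome 2 from 270386221 to 270400000, had peaks of 1093, 672 and 1091 bases with scores of 7.46, 11.3 and 9.96. Joining same-strand peaks less than 100 bases apart gave 459 stretches of at least 500 bases, with a median of 788 bases and the same longest stretch of 4521.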

How the data were processed

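Poly(A) mRNA of 3 Control and 3 SNI nerves was measured by MeRIP-seq as IP and input libraries. The authors trimmed reads with Cutadapt (1.9.3), aligned them to rn5 with HISAT2 (2.0.4; versions also in the submitters' processing notes), detected peaks with MACS, compared the groups with diffReps and overlapped peaks with exons. The deposited list has 6 columns, whose score is the authors' −log10 p-value. It gives no depth per peak. Replicates were not separable.

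From the list, lengths, edges, gaps and runs were computed in Python 3.11.15 (pandas 2.3.3 with numpy 2.4.6; scipy 1.17.1 for intervals; matplotlib 3.10.9 for figures), in functions tested on simulated data. The members and gene lists were chosen with earlier results of these data known. Views of upstream and downstream edges, neighbouring named peaks, multiples of 3 and wide dense groups were added after values were seen. Named genes were every long peak named in the study's tables (60 of 61 are described, the other is not reported here), with the longest, the highest scoring and those at the threshold. Of 56 names, 54 matched RefSeq (GRCr8), 49 by symbol. No rn5 genome was used, so no sequence is shown. Alternatives changed the length definition and threshold, score threshold, merging, grid tolerance, distance and overlap.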

Additional observations from a re-analysis of the deposited data

How the results depend on the processing

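Of 81 values under alternative settings, 67 were labelled as kept within the spread set for them and 14 as moved. That spread was wide for counts, which have no interval. All settings drew nested or overlapping sets of peaks from the same list, so much of the agreement was built in. The 67 kept values are therefore not a measure of robustness. Keeping only peaks with a score of at least 8 left 212 long peaks, 33 of them named, with a median score of 9.62, higher by construction. The on-grid shares were then 38.7% for ends, 32.5% for upstream edges and 22.2% for both edges. A same-strand peak within 10 kb was found for 34.4%, with dropped peaks no longer counted as neighbours. Accepting edges within 1 base of the grid can only raise the shares. It gave 55.7% for starts, 54.6% for ends, 35.0% for both edges, 48.5% for upstream and 61.9% for downstream edges. The share with a near neighbour also moved by construction with the distance, to 25.3% at 1 kb and 64.8% at 50 kb. Thresholds of 400 and 600 bases gave 645 and 333 peaks, against 454 in the main setting. Named peaks were then 86 and 42, against 61. All of these counts were labelled as kept. Other causes were not tested. Leaving out dense groups with gaps under 10 kb gave no value, as no group met it. With gaps under 20 kb, chosen after seeing the data, 134 peaks dropped out and 452 long peaks were left. No paired analysis was possible because the list holds no values per library, and for the same reason no replicate could be left out. The list holds peaks past the authors' thresholds only, so unchanged long peaks were not seen.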
